A study of Mus musculus with 9 samples.

Results

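The 48 genes described here are type I interferon-stimulated genes, fixed as a list of gene symbols and read from the platform annotation of a mouse whole-transcript array. Of the 48, 45 had a probe set that carried their symbol alone. Oas1a and Dtx3l were listed only on probe sets shared with other genes and Ifi44 was not listed, so these 3 have no value here. Across the array 22180 genes could be read in this way, from the probe set with the highest mean where a gene had several. The cells were splenic natural killer (NK) cells of female C57BL/6N mice, enriched with DX5 magnetic beads and expanded with human IL-2 (5000 U/ml) over 7 days, with no interferon named in the labels. The mice were wild type (WT), lacked the Janus kinase Tyk2 (Tyk2-/-) or carried Tyk2 with a substitution that inactivates the kinase (Tyk2K923E). Each genotype was cultured in 3 independent experiments from a pool of 3 to 4 mice and measured on 1 array per experiment, which gives 9 arrays. Spread between arrays is therefore spread between pools, not between single mice.

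Type I interferons bind the receptor chains Ifnar1 and Ifnar2, to which the kinases Tyk2 and Jak1 are attached. The kinases phosphorylate Stat2, which joins Irf9 in a complex that binds the interferon-stimulated response element (ISRE) in the promoters of its target genes. The targets sense foreign RNA and DNA, block steps of virus replication, attach the ubiquitin-like protein Isg15 to other proteins, or limit the response itself. Many of these genes also have a level of expression without added interferon, which has been linked to low constant signalling through the same receptor.

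Levels are log2 RMA signals, in which 1 unit is a 2-fold step, and are compared between genotypes for the same probe set only. The medians of the 9 arrays lay between 5.42 and 5.48. Differences of single genes are given ± their standard error in the limma fit that does not pair the arrays by experiment, with 3 arrays per genotype. With the arrays paired, this error was smaller for genes that shifted between experiments, such as Samhd1 (0.06 against 0.24) and Isg20 (0.13 against 0.34). Where a pair of differences from WT is given Tyk2-/- comes first and Tyk2K923E second. The probe set of Tyk2 itself read 8.68, 8.56 and 8.63 in WT, 8.63, 8.43 and 8.52 in Tyk2K923E and 9.55, 8.63 and 8.85 in Tyk2-/- in experiments 1, 2 and 3, with differences of 0.39 ± 0.20 and -0.10 ± 0.20. It was not lower in the arrays labelled Tyk2-/-, and the position of its probes relative to the deleted part is not given in the sources used here. All 12 NK cell markers measured, such as Ncr1, Eomes and Gzmb, lay above the array medians, with a mean level of 10.9 to 11.1 per array. Of these 12, 7 were lower than WT in each mutant, with a median difference of -0.13 in Tyk2-/- and -0.08 in Tyk2K923E. The lowest in Tyk2K923E was Itga2, which encodes the DX5 antigen used for enrichment, at -0.71 ± 0.09, and it was at -0.39 ± 0.09 in Tyk2-/-. Klrk1, the activating receptor NKG2D, was at -0.32 and -0.47. Markers of 6 other cell types were read beside the interferon-stimulated genes. For T cells 8 of 9 markers were lower than WT in each mutant, with a median difference of -0.09 in Tyk2-/- and -0.36 in Tyk2K923E, and the mean of Cd4 alone lay under the mean array median. The mean level of the T cell list was 8.35 to 8.75 in WT, 8.02 to 8.37 in Tyk2K923E and 8.33 to 8.67 in Tyk2-/-. For basophils and mast cells 4 of 4 markers were higher in Tyk2K923E, with a median of 0.42, and the list's mean level was 6.09 to 6.55 against 5.87 to 6.00 in WT and 5.98 to 6.24 in Tyk2-/-, where 3 of 4 were higher with a median of 0.08. Fcer1a and Ms4a2 of that list lay under the array medians in every genotype. For plasmacytoid dendritic cells, the strongest makers of type I interferon, 3 of 6 markers lay under the array medians (Siglech, Ccr9 and Klk1). Tcf4, Cox6a2 and Pacsin1 had means above them, and the list's mean level was 5.28 to 5.47 over the 9 arrays. Of the 6, 3 were lower than WT in Tyk2-/- and 4 in Tyk2K923E, with median differences of 0.01 and -0.01. Cox6a2 was the farthest from WT, at -0.49 ± 0.22 and -0.37 ± 0.22. The B cell, neutrophil and myeloid lists had 3 of 4, 3 of 4 and 5 of 8 markers under the array medians and median differences of -0.03 to 0.08. The part of these cell types in the values below was not tested, and a lower level in such bulk RNA cannot tell fewer cells of a type from less RNA per cell.

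Nearly all interferon-stimulated genes had a lower mean in both mutants than in WT, most of them by little, and none passed the test across all genes. In Tyk2-/- cells 42 of 45 were lower than WT, with a median log2 difference of -0.17 and a range from -1.26 (Usp18) to 0.07 (Mx2). Over all 22180 genes 50.0% were lower and the median was 0.00. In Tyk2K923E cells 43 of 45 were lower, with a median of -0.21 and a range from -1.40 (Rtp4) to 0.11 (Daxx), whereas 46.3% of all genes were lower and the median was 0.01. In experiments 1, 2 and 3 the medians of the 45 genes were -0.14, -0.18 and -0.16 in Tyk2-/- and -0.25, -0.26 and -0.24 in Tyk2K923E. Both comparisons use the same 3 WT arrays. The genes were chosen with earlier results of these data known. The counts here and below therefore describe the list and are no independent support.

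For most single genes the arrays of the genotypes overlapped. In Tyk2-/- cells 23 of 45 were below WT in all 3 experiments (11.9% of all genes were), and for 12 of 45 the 3 mutant arrays lay below all 3 WT arrays (2.80% of all genes). In Tyk2K923E cells the counts were 29 of 45 (11.4%) and 14 of 45 (2.94%). In neither comparison did an interferon-stimulated gene have all 3 mutant arrays above all WT arrays, against 2.59% and 3.85% of all genes. In limma over all genes 0 of 45 passed an adjusted p of 0.05 in either mutant, where 0.0180% of all genes passed in Tyk2-/- and 0.00451% in Tyk2K923E, and pairing the arrays by experiment gave 0 of 45 as well, at the same background shares. At an unadjusted p under 0.05, 10 genes were lower in Tyk2-/- (1.37% of all genes) and 14 in Tyk2K923E (1.85%). With the experiments paired these counts were 18 (3.23%) and 21 (3.26%), and 0 genes of the list were higher at that level in any of these fits. The genes on the array that were higher amounted to 1.06% and 2.34%, or 2.92% and 4.30% paired. The adjustment covers every gene with a probe set, dim ones included. When only the genes whose mean reached the array median were kept and experiments were paired, Rtp4 passed in both mutants and Lgals3bp in Tyk2K923E, as the closing section details.

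**Figure D1:**
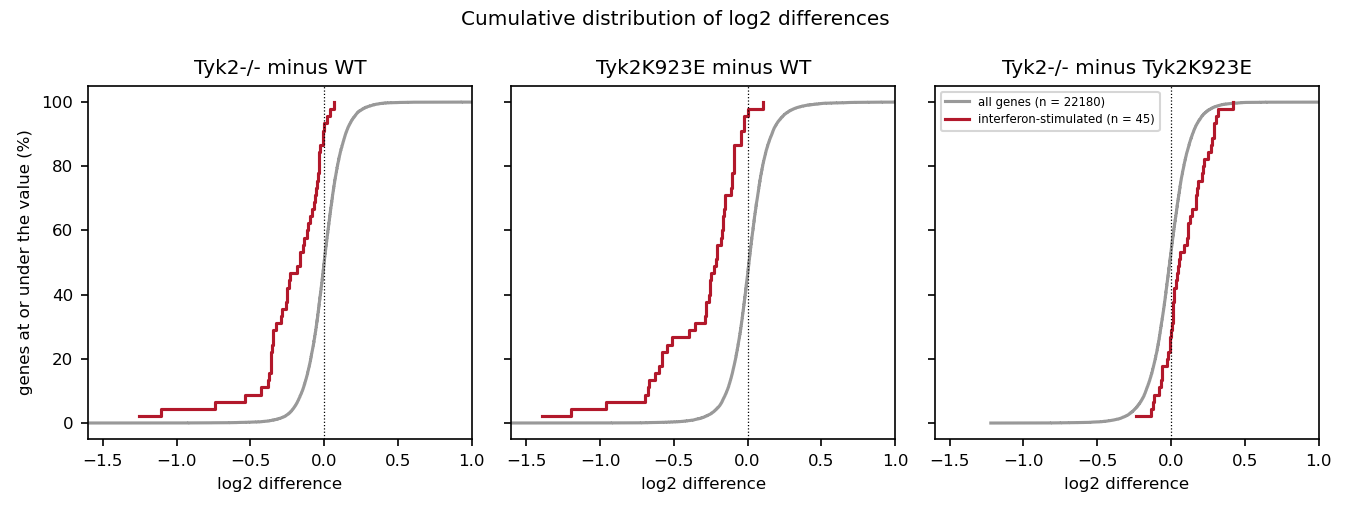
Cumulative share of genes (vertical axis, %) at or under each log2 difference (horizontal axis) for the 45 interferon-stimulated genes (red) and all 22180 genes (grey) in the 3 comparisons, with values beyond the axis not drawn. The red curve lies left of the grey one against WT, with medians of -0.17 and -0.21, and slightly right of it in Tyk2-/- minus Tyk2K923E, with a median of 0.06.

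The element bound by the complex of Stat2 and Irf9 was looked for in the promoters. RefSeq windows (GRCm38.p6, 250 bases before to 50 after the start of transcription) were found for 38 of the 48 genes. The ISRE core was searched on both strands as GAAA, any 2 bases and GAAA. It was present for 14 of 38 (36.8%, exact 95% binomial interval 21.8% to 54.0%), against 3.99% of the 27025 genes in the table. Within the 250 bases before the start alone, 9 of 38 had it (23.7%), against 3.46% of all genes. The longer form, which is the core followed by CT, was present for 8 of 38 (21.1%) and for 0.303% of all genes. The core of the gamma-activated site, TTCNNNGAA on both strands, which can overlap the ISRE core, was present for 9 of 38 (23.7%) and for 9.55% of all genes. The stretches below, read 5′ to 3′ on the strand of the gene, hold the matches that lie before the start in 7 genes that differ in how far they were from WT. Capitals mark every base in a match.

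Isg15, chr4:156200863-156200908, minus strand: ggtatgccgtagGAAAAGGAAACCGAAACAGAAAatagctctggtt
Ifit1, chr19:34640773-34640825, plus strand: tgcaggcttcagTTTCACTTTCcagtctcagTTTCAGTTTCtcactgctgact
Ifit3, chr19:34583361-34583394, plus strand: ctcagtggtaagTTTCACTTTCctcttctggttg
Ifit3, chr19:34583395-34583428, plus strand: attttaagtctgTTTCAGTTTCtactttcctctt
Oas3, chr5:120777713-120777746, minus strand: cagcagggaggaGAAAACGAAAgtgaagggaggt
Trim30a, chr7:104465208-104465241, minus strand: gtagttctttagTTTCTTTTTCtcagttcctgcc
Phf11b, chr14:59341359-59341392, minus strand: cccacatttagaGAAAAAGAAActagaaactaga
Rsad2, chr12:26456551-26456584, minus strand: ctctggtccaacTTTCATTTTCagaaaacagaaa

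Isg15 had 3 overlapping matches between bases -78 and -57 from its start, and the matches of Oas3, Trim30a and Phf11b shown began at -75, -36 and -50. Trim30a had a further match 3 bases after the start in a second window. Among these Phf11b was the farthest below WT in Tyk2K923E, and its 250 bases before the start (chr14:59341331-59341580, minus strand) are given whole, with the match in capitals.

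Phf11b: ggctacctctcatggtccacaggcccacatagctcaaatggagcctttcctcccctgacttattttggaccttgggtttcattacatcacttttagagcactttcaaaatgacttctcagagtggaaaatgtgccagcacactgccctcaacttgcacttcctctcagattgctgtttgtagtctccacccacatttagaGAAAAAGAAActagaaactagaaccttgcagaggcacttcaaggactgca

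Genes with and without a match to the ISRE core as searched lay at similar distances from WT. The 13 measured genes with an ISRE core in the window had median differences of -0.17 in Tyk2-/- and -0.23 in Tyk2K923E, and the 22 measured genes whose window held none of these letters had -0.16 and -0.19. Rsad2, with a match at -120, differed by -0.01 and -0.09. Lgals3bp, Xaf1 and Oasl1, with no match in the window, are among the genes with the lowest p. The search fixed the spacing of the GAAA repeats, and some windows without a match held them at another spacing. Examples are gaaacgaaact in Xaf1, gaaaatcgaaact in Lgals3bp and gaaacgaaa in Helz2, Phf11d and Adar. The comparison therefore cannot tell genes with such an element from genes without any, and whether these repeats act was not tested. Over the whole array, the 657 genes with the core had medians of 0.00 and 0.00. The 10 genes with no window in the table, Rtp4, Usp18, Mx1, Mx2, Zbp1, Dhx58, Oas2, Parp9, Parp14 and Tor3a, had medians of -0.25 and -0.30.

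Rtp4, a chaperone that helps receptors reach the cell surface, had the lowest p of the list. It read 6.72, 7.05 and 6.57 in WT, 5.76, 5.29 and 5.10 in Tyk2K923E and 5.77, 5.70 and 5.55 in Tyk2-/- in experiments 1, 2 and 3. All mutant arrays lay below all WT arrays, and the mean signal was 2.15-fold lower in Tyk2-/- and 2.63-fold lower in Tyk2K923E. The Tyk2K923E arrays of experiments 2 and 3 lay under the array medians, which limits how well that fold is known. The log2 differences were -1.11 ± 0.18 and -1.40 ± 0.18, with a limma adjusted p of 0.515 and 0.236, or 0.18 and 0.149 with the experiments paired. Lgals3bp, a secreted glycoprotein that binds galectins, read 10.21, 10.46 and 10.44 in WT, 9.64, 9.84 and 9.74 in Tyk2K923E and 9.78, 9.99 and 10.19 in Tyk2-/- in experiments 1, 2 and 3. The groups of both mutants lay apart from WT, with differences of -0.38 ± 0.12 in Tyk2-/- and -0.63 ± 0.12 in Tyk2K923E (limma adjusted p = 0.545, or 0.15 paired). A second probe set of Lgals3bp gave -0.44 and -0.61.

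Xaf1, a promoter of apoptosis that opposes the inhibitor Xiap, read 8.21, 8.06 and 8.02 in WT, 7.69, 7.70 and 7.16 in Tyk2K923E and 7.78, 7.78 and 7.67 in Tyk2-/- in experiments 1, 2 and 3. Both mutants lay below every WT array, and the Tyk2K923E array of experiment 3 was the lowest. The differences were -0.36 ± 0.14 and -0.58 ± 0.14 (limma adjusted p = 1 and 0.817). Epsti1, a gene first found in the epithelial response to stroma, read 10.57, 10.35 and 10.24 in WT, 10.11, 9.84 and 10.02 in Tyk2K923E and 10.39, 9.99 and 9.93 in Tyk2-/- in experiments 1, 2 and 3. The Tyk2-/- array of experiment 1 lay among the WT arrays, whereas the Tyk2K923E arrays lay below all of them. Its differences were -0.28 ± 0.14 and -0.39 ± 0.14. In the remainder of this mixed group, Ifi35 and Tor3a stayed within -0.20 to -0.04 of WT.

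**Figure D2:**
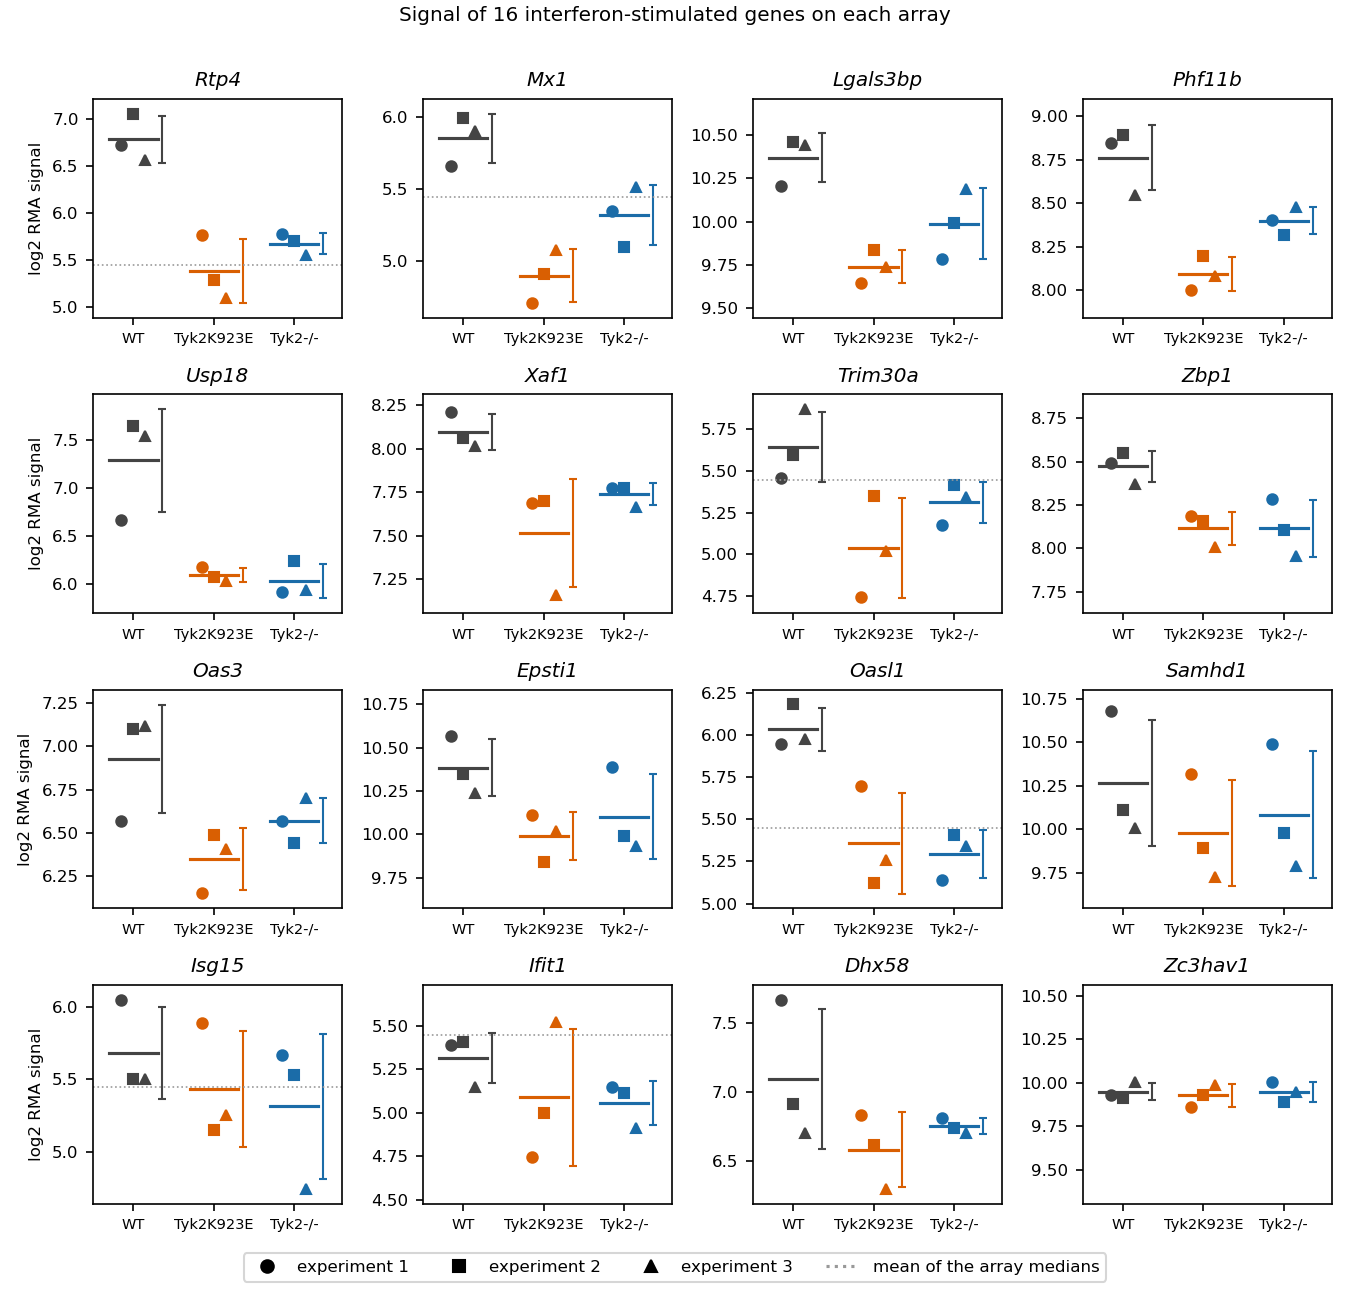
Log2 RMA signal (vertical axis, scaled per gene and at least 1.2 units tall) of 16 interferon-stimulated genes on each array. Circles, squares and triangles are experiments 1, 2 and 3, horizontal lines are means, bars at the side are the SD of 3 arrays, and the dotted line is the mean of the array medians. Rtp4, Mx1, Usp18 and Oasl1 are separated between WT and both mutants, while Zc3hav1 is level in all genotypes.

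The ISG15 system held both a large and several small differences. Usp18, the protease that removes Isg15 and also blocks the interferon receptor, read 6.67, 7.65 and 7.54 in WT, 6.17, 6.07 and 6.03 in Tyk2K923E and 5.91, 6.23 and 5.94 in Tyk2-/- in experiments 1, 2 and 3. WT of experiment 1 was lower than the other WT arrays, yet every mutant array lay below it. The log2 differences were -1.26 ± 0.23 in Tyk2-/- and -1.19 ± 0.23 in Tyk2K923E (limma adjusted p = 0.949 and 0.545), a 2.39-fold and a 2.29-fold lower signal. Without WT replicate 1 the differences were -1.56 and -1.50 and passed, at a limma adjusted p of 0.00796 and 0.0305, and with the experiments paired as well Tyk2-/- passed (0.0347) and Tyk2K923E did not (0.0669). In that paired fit 3 genes of the whole array passed in Tyk2-/- and 1 in Tyk2K923E. WT replicate 1 is the WT array nearest to the mutants for Usp18, so leaving it out widens the difference by construction and gives no support. Isg15 read 6.05, 5.50 and 5.50 in WT, 5.89, 5.15 and 5.25 in Tyk2K923E and 5.67, 5.53 and 4.74 in Tyk2-/- in experiments 1, 2 and 3. The genotypes overlapped and the arrays of experiment 1 were the highest of each genotype, and the differences were -0.37 ± 0.28 and -0.25 ± 0.28. Herc6, the main ligase for Isg15 in mice, differed by -0.25 ± 0.10 in Tyk2-/-, where the arrays did not overlap with WT, and by -0.11 ± 0.10 in Tyk2K923E, where they did. The conjugating enzyme Ube2l6 and the ligase Trim25 lay between -0.05 and -0.03 of WT, except for Trim25 at -0.21 in Tyk2K923E.

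Restriction factors, which act on viruses directly, differed little apart from Mx1. Mx1 encodes a GTPase whose functional form traps viral ribonucleoproteins, and the arrays measure its RNA only. Mx1 read 5.66, 5.99 and 5.91 in WT, 4.71, 4.91 and 5.08 in Tyk2K923E and 5.34, 5.09 and 5.51 in Tyk2-/- in experiments 1, 2 and 3. Its Tyk2K923E arrays all lay below the Tyk2-/- arrays, and these below WT. The differences were -0.54 ± 0.14 (limma adjusted p = 1) and -0.96 ± 0.14 (limma adjusted p = 0.313, or 0.15 paired). All mutant arrays but the Tyk2-/- array of experiment 3 lay under the array medians. Samhd1, which degrades deoxynucleotides, read 10.68, 10.11 and 10.01 in WT, 10.32, 9.89 and 9.72 in Tyk2K923E and 10.49, 9.98 and 9.79 in Tyk2-/- in experiments 1, 2 and 3. Experiment 1 was high in all genotypes, so that the groups overlapped although WT was the highest array within each experiment. Its differences were -0.18 ± 0.24 and -0.29 ± 0.24. With the experiments paired the standard error was 0.06, at a limma adjusted p of 0.795 and 0.332. The other 7, namely Bst2 (tetherin), Ifitm3, Zc3hav1 (ZAP), Isg20, Cmpk2, Rsad2 (viperin) and Mx2, lay between -0.34 (Isg20) and 0.07 (Mx2) in Tyk2-/- and between -0.28 (Ifitm3) and -0.02 (Zc3hav1) in Tyk2K923E, with no separation of the arrays from WT.

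Among nucleic acid sensors, Zbp1, which binds left-handed RNA and DNA and can start necroptosis, read 8.49, 8.55 and 8.37 in WT, 8.18, 8.16 and 8.01 in Tyk2K923E and 8.28, 8.10 and 7.96 in Tyk2-/- in experiments 1, 2 and 3. Both mutants lay below all WT arrays, with differences of -0.36 ± 0.10 and -0.36 ± 0.10 (limma adjusted p = 1 and 1). Dhx58, the RIG-I-like helicase LGP2, read 7.67, 6.91 and 6.70 in WT, 6.84, 6.62 and 6.30 in Tyk2K923E and 6.81, 6.74 and 6.70 in Tyk2-/- in experiments 1, 2 and 3. WT of experiment 1 stood above the others, and the groups overlapped, with differences of -0.34 ± 0.23 and -0.51 ± 0.23. Ddx58 (RIG-I) was below WT in every experiment in both mutants, with differences of -0.17 ± 0.13 and -0.17 ± 0.13, while its groups overlapped. Ifih1 (MDA5) differed by -0.03 and -0.02.

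The enzymes that act on double-stranded RNA were all below WT in the mean, 6 of 6 in each mutant. Oasl1, an oligoadenylate synthetase-like protein that restrains Irf7 translation in mice, read 5.95, 6.18 and 5.97 in WT, 5.70, 5.12 and 5.26 in Tyk2K923E and 5.14, 5.41 and 5.34 in Tyk2-/- in experiments 1, 2 and 3. No mutant array reached the WT range, and the differences were -0.74 ± 0.15 (limma adjusted p = 1) and -0.68 ± 0.15 (limma adjusted p = 0.652). Oas3, which makes the oligoadenylates that switch on RNase L, read 6.57, 7.10 and 7.12 in WT, 6.15, 6.49 and 6.41 in Tyk2K923E and 6.57, 6.44 and 6.70 in Tyk2-/- in experiments 1, 2 and 3. WT and Tyk2-/- had the same value in experiment 1, and the Tyk2K923E arrays lay wholly below WT, with differences of -0.36 ± 0.16 and -0.58 ± 0.16. Oas2, Oasl2, Eif2ak2 (the kinase PKR) and Adar (an RNA editing enzyme) ranged from -0.14 to -0.05 in Tyk2-/- and from -0.26 to -0.09 in Tyk2K923E. Of these, Oas2 and Oasl2 lay under the array median on every array.

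Of the IFIT proteins, which bind foreign RNA, Ifit1 and Ifit2 had a mean below the array median. Ifit1 read 5.39, 5.41 and 5.15 in WT, 4.74, 5.0 and 5.52 in Tyk2K923E and 5.15, 5.11 and 4.91 in Tyk2-/- in experiments 1, 2 and 3. Its Tyk2K923E array of experiment 3 was the highest of the 9, and the groups overlapped, with differences of -0.26 ± 0.18 and -0.23 ± 0.18. Ifit2 differed by -0.25 ± 0.29 and -0.54 ± 0.29 and Ifit3 by -0.29 ± 0.20 and -0.28 ± 0.20, also with overlap. For Ifit3 the difference in Tyk2-/- ranged from -0.52 to 0.02 when single arrays or experiments were left out.

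Trim30a, a ubiquitin ligase that dampens signalling to NF-kappa B, read 5.46, 5.59 and 5.87 in WT, 4.75, 5.35 and 5.02 in Tyk2K923E and 5.18, 5.42 and 5.34 in Tyk2-/- in experiments 1, 2 and 3. Both mutants lay below all WT arrays, with differences of -0.33 ± 0.16 and -0.60 ± 0.16 (limma adjusted p = 1 and 0.961). Trim21, an antibody receptor in the cytosol, was also separated from WT in both mutants, but by -0.08 ± 0.06 and -0.09 ± 0.06. Rnf213, a large ATPase and ubiquitin ligase, differed by -0.03 and -0.18 with overlap.

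Of the 3 PARPs, which attach ADP-ribose to proteins, Parp12 was the farthest from WT. It differed by -0.43 ± 0.17 in Tyk2-/- and -0.69 ± 0.17 in Tyk2K923E, and neither mutant overlapped with WT. Parp9 and Parp14 were lower in every experiment in both mutants, with differences of -0.21 to -0.09.

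Among nuclear proteins, Phf11b, a PHD finger protein, read 8.85, 8.89 and 8.55 in WT, 8.0, 8.20 and 8.08 in Tyk2K923E and 8.40, 8.32 and 8.48 in Tyk2-/- in experiments 1, 2 and 3. The 3 genotypes were fully separated, with Tyk2K923E the lowest. Differences from WT were -0.36 ± 0.10 (limma adjusted p = 1) and -0.67 ± 0.10 (limma adjusted p = 0.313, or 0.209 paired). Its relative Phf11d lay under the array medians on all arrays, so the paralogues cannot be compared, and cross-hybridisation between them was not tested. Sp100, a component of PML nuclear bodies, differed by -0.24 ± 0.11 and -0.25 ± 0.11, and its 4 probe sets gave -0.24 to -0.16 in Tyk2-/- and -0.32 to -0.25 in Tyk2K923E. Daxx, Helz2 and Znfx1 lay between -0.16 and 0.11 of WT.

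**Figure D3:**
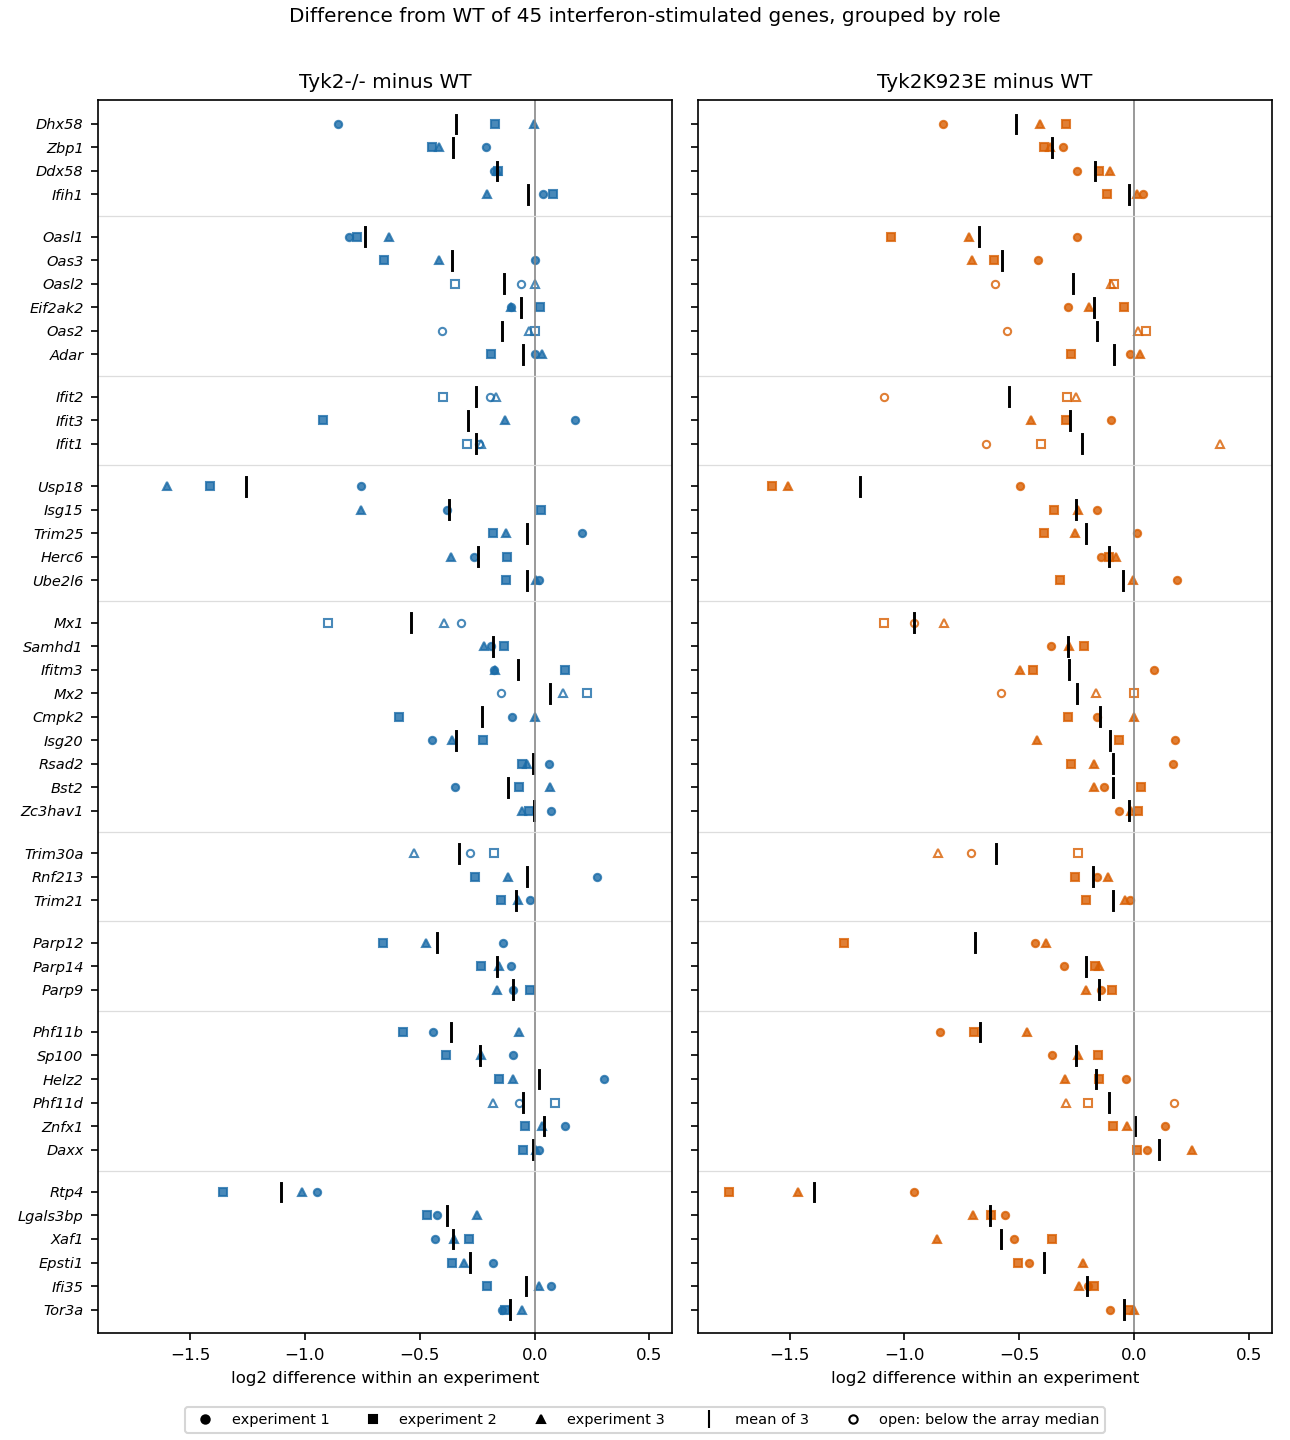
Log2 difference from WT (horizontal axis) within experiment 1 (circles), 2 (squares) and 3 (triangles) for 45 interferon-stimulated genes (vertical axis), with rows grouped by role in the order sensors, double-stranded RNA enzymes, IFIT proteins, ISG15 system, restriction factors, ubiquitin ligases, PARPs, nuclear proteins and others. Vertical ticks are means of 3, and open symbols are the 8 genes with a mean below the array median. Most points lie left of 0, and Rtp4 and Usp18 reach the lowest values.

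In the signalling chain the factor Irf9 was separated from WT in both mutants, and no gene of the chain passed the test. Whether the level of Irf9 bears on the interferon-stimulated genes was not tested. For the pathway list 23 genes were read. The mutant arrays lay below all WT arrays for 1 of 23 in Tyk2-/- (Irf9, 2.80% of all genes) and for 7 of 23 in Tyk2K923E (2.94%). These 7 were Irf9, Irf1, Stat2, Sting1, Ifnar2, Socs1 and Ptpn6, and 0 lay above WT in either mutant (2.59% and 3.85%). Ifnar2, Socs1 and Ptpn6 differed by -0.28, -0.27 and -0.23 in Tyk2K923E and by -0.12, -0.004 and -0.001 in Tyk2-/-. In limma 0 of 23 passed in either mutant, paired or not (0.0180% of all genes passed in Tyk2-/- and 0.00451% in Tyk2K923E). At an unadjusted p under 0.05, 1 was lower in Tyk2-/- (1.37% of all genes) and 5 in Tyk2K923E (1.85%). With the experiments paired the counts were 3 (3.23%) and 9 (3.26%), and Tyk2 alone was higher in Tyk2-/- (2.92%). Irf9, the DNA-binding partner of Stat2, read 8.58, 8.36 and 8.28 in WT, 8.15, 8.02 and 7.71 in Tyk2K923E and 8.02, 7.94 and 7.79 in Tyk2-/- in experiments 1, 2 and 3. All mutant arrays lay below all WT arrays, with differences of -0.49 ± 0.13 and -0.45 ± 0.13 (limma adjusted p = 1 and 1, or 0.236 and 0.214 paired). Irf7, which drives interferon transcription and is itself interferon-inducible, read 7.92, 7.63 and 7.47 in WT, 7.48, 7.12 and 7.18 in Tyk2K923E and 7.56, 7.21 and 7.25 in Tyk2-/- in experiments 1, 2 and 3. WT was the highest array of each experiment although the groups overlapped, and the differences were -0.33 ± 0.15 and -0.41 ± 0.15. Stat2 read 8.17, 8.25 and 8.24 in WT, 8.14, 8.15 and 8.10 in Tyk2K923E and 8.47, 8.22 and 8.32 in Tyk2-/- in experiments 1, 2 and 3. Its Tyk2K923E arrays lay just below WT and its Tyk2-/- arrays overlapped with WT, with differences of 0.12 ± 0.08 and -0.09 ± 0.08. Sting1, the adaptor for cytosolic DNA, and the transcription factor Irf1 differed by -0.31 ± 0.10 and -0.29 ± 0.08 in Tyk2K923E without overlap, and by -0.17 ± 0.10 and -0.10 ± 0.08 in Tyk2-/- with overlap. The 4 ligand genes read were not alike in level. The probe sets of Ifnb1 and Ifna2 lay under the array medians, with means of 3.96, 3.93 and 4.12 and of 4.05, 4.10 and 4.03 in WT, Tyk2K923E and Tyk2-/-. Those of Ifna1 and Ifna4 lay above them, with means of 7.50, 7.53 and 7.51 and of 6.92, 6.6 and 6.92. The groups of all 4 overlapped with WT, and cross-hybridisation within the family of closely related interferon alpha genes was not tested.

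The direct comparison of the mutants asks whether the missing and the inactive kinase leave the same levels. In Tyk2-/- 13 of 45 interferon-stimulated genes were lower than in Tyk2K923E (53.5% of all genes were lower), with a median of 0.06 against -0.01 over all genes. In limma 0 of 45 passed, paired or not (0.0135% of all genes passed in either fit), and at an unadjusted p under 0.05, 3 genes were higher in Tyk2-/- (1.13% of all genes) and 0 lower (2.22%), or 5 (2.96%) and 0 (4.60%) with the experiments paired. The genes whose arrays did not overlap were Mx1, Phf11b and Trim25, all higher in Tyk2-/- (2.43% of all genes were separated in that direction), and 0 were separated in the other direction (3.53%). Mx1 differed by 0.42 ± 0.14, Phf11b by 0.31 ± 0.10 and Trim25 by 0.18 ± 0.09. The 5 genes with an unadjusted p under 0.05 when paired were Mx1, Phf11b, Trim30a, Lgals3bp and Mx2, and the last 3 differed by 0.27 ± 0.16, 0.25 ± 0.12 and 0.32 ± 0.13. Rtp4 differed by 0.29 ± 0.18 with overlap. Usp18 differed by -0.06 ± 0.23 and Zbp1 by less than 0.01, and Isg20 was the gene farthest below Tyk2K923E, at -0.24 ± 0.34. A difference that misses the threshold does not show that the mutants are alike, and the standard error for Usp18 exceeded its difference.

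For differences between experiments the counts lay near those of the whole array, except for genes higher in experiment 1. In the model of genotype and experiment, 6 of 45 passed the moderated F-test for experiment in limma, near the 11.3% of all genes that did, and 9 of 37 passed when only genes with a mean at or over the array median were tested, where 29.5% of all genes did. Experiment 1 was compared with experiments 2 and 3 because earlier results of these data had set it apart. The p-values of that comparison are therefore no independent support. In that comparison 6 genes were higher, or 13.3% of the list against 6.99% of all genes. A further 4 were lower, or 8.89% against 9.07%, and the median over the 45 was -0.01. Isg20 was higher in experiment 1 by 0.78, Samhd1 by 0.58 and Isg15 by 0.59 (limma adjusted p = 0.0036, 0.000938 and 0.0254). Eif2ak2 and Ifit2 differed by -0.56 and -0.57 (limma adjusted p = 0.0014 and 0.0495). Rtp4, Mx1 and Lgals3bp did not pass in this comparison, at a limma adjusted p of 0.326, 0.311 and 0.06. Among the WT arrays alone, a gene of the list ranged over 0.31 log2 units in the median, against 0.21 for all genes. Neither these ranges nor the shares for experiment 1 are matched for level. Of the list 17.8% had a mean below the array median, against 44.6% of all genes. Whether the list varies more than genes of like level was not tested.

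**Figure D4:**
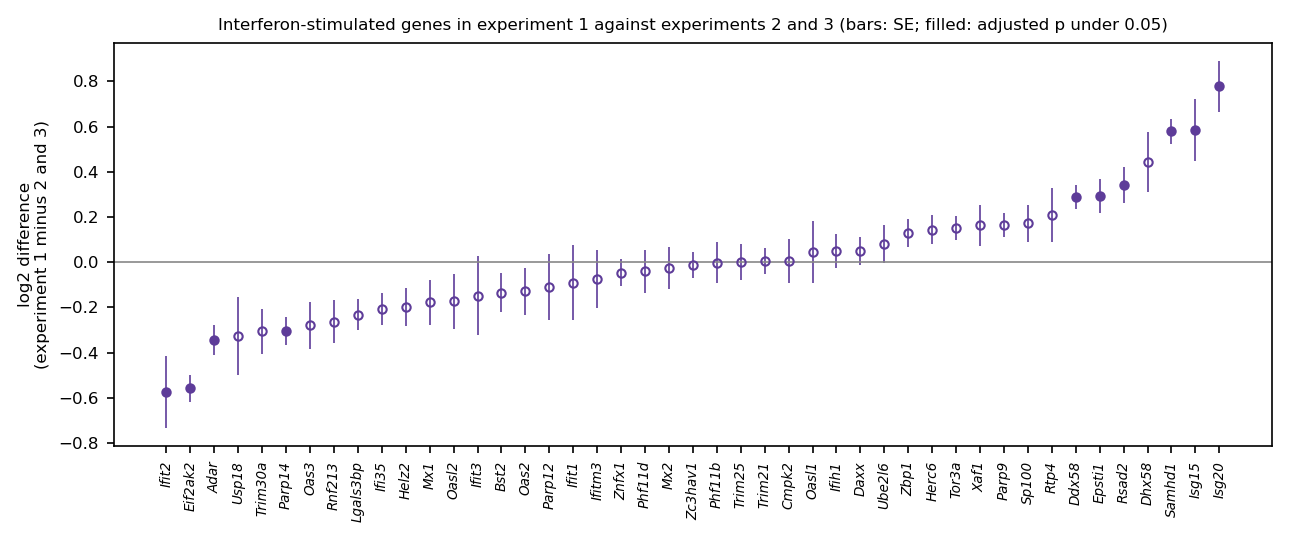
Log2 difference of experiment 1 from the mean of experiments 2 and 3 (vertical axis) for each of 45 interferon-stimulated genes (horizontal axis), from the model with genotype. Points are estimates, bars are SE, and filled points have an adjusted p under 0.05. The 6 filled points above 0 end at Isg20 and the 4 below 0 start at Ifit2.

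The level of a gene bounds what its difference can show. Of the 45 genes 8 had a mean below the array median, namely Ifit1, Ifit2, Oas2, Oasl2, Mx1, Mx2, Trim30a and Phf11d, which is 17.8% against 44.6% of all genes. In these 8 the median difference from WT was -0.20 in Tyk2-/- and -0.26 in Tyk2K923E, and in the 37 brighter genes it was -0.17 and -0.20. The mean includes the WT arrays: Isg15 and Oasl1 count among the 37 although their means in both mutants, 5.43 and 5.36 in Tyk2K923E and 5.31 and 5.30 in Tyk2-/-, lie under the mean array median. Rtp4 is also among the 37, with a mean of 5.38 in Tyk2K923E, under the mean array median. The counts over all 45 genes used no filter on level. The few genes with several probe sets gave the same direction in both mutants, except for the dimmer probe set of Ifi35, at 0.03 and 0.01.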

How the data were processed

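The values were the deposited log2 signals of 9 Affymetrix arrays, made by the submitters with RMA in Partek 6.6, per the submitters' processing notes. RMA corrects background, quantile-normalises the arrays and summarises probes to 1 value per probe set, which forces the same overall distribution on every array. No further scaling was applied. Of 41345 probe sets, 23521 had 1 symbol in GEO's platform annotation, 1814 had several and 16010 were not listed. Per gene the probe set with the highest mean over the 9 arrays was kept, which gave 22180 genes with no filter on level.

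Genotypes were compared with limma 3.58.1 in R 4.3.3 (lmFit and eBayes, group means, no block), with Benjamini-Hochberg adjustment over all 22180 genes and a threshold of 0.05. The second fit added the experiment as a block. The experiment numbers come from the labels, and deviations from the genotype means correlated at 0.21 to 0.62 within an experiment and at -0.50 to 0.35 between experiments. An exact permutation test of 3 against 3 arrays cannot give a p under 0.1. The scripts were tested on simulated data.

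Values on every array are given for the 12 genes with the smallest p in the blocked fit against WT, and for Isg15, Ifit1, Mx1, Usp18, Stat2, Irf9, Irf7 and Tyk2. Dhx58, and Zc3hav1 in the plot of levels, were added after their values were seen. The members, the role groups, the pathway list and the marker lists were chosen with earlier results of these data known. Filters on level, centring, quantile normalisation, probe set rules, an intensity trend and left-out arrays were tried as alternatives. Motifs were searched with Python 3.11.15.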

Additional observations from a re-analysis of the deposited data

How the results depend on the processing

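With experiment as a replicate block (arrays paired by experiment), the interferon-stimulated genes past the threshold stayed at 0 in each comparison, and the genes past it on the whole array at 4, 1 and 3 for Tyk2-/- against WT, Tyk2K923E against WT and Tyk2-/- against Tyk2K923E. Blocked fits combined with another choice were added after seeing the data. Keeping genes whose mean reached the array median, with the block, gave 10 genes in Tyk2-/- with 1 of the list (Rtp4, adjusted p = 0.0444) and 8 in Tyk2K923E with 2 (Rtp4, 0.0348, and Lgals3bp, 0.0406). Keeping genes that reached it on 3 of 9 arrays gave 11 with 1 (Rtp4, 0.0446), a median of -0.2058 over 40 genes with or without the block, and 11 with 3 (Rtp4, Mx1 and Lgals3bp, 0.0375 each). Mx1 met that filter through its 3 WT arrays and 1 Tyk2-/- array, so its call there is no support. Both filters test fewer genes. An intensity trend with the block gave 10 genes in Tyk2-/- with 0 of the list and 5 in Tyk2K923E with 2 (Rtp4 and Lgals3bp), and the cause was not tested. Fitting only the 2 genotypes compared gave 2 and 0 genes from fewer arrays. Median centring moved the Tyk2K923E median to -0.22 and turned Zbp1 between the mutants to 0.0158. The longer ISRE gave 21.1% of promoters.

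With single arrays or experiments left out, Tyk2-/- against WT gave 0 to 4 genes, 0 to 1 of the list, 34 to 43 lower and a median of -0.21 to -0.14. Tyk2K923E gave 0 to 2, 0 to 1, 40 to 43 and -0.25 to -0.18. The mutants against each other gave 0 to 3, 0, 8 to 17 lower and 0.04 to 0.11. The 1 gene of the list was Usp18 without WT replicate 1, which with the block passed in Tyk2-/- alone (-1.56, adjusted p = 0.0347). The array left out is the WT array nearest to the mutants for Usp18, so its call there is no support. Signs turned in Tyk2-/- for Rsad2 (-0.10 to 0.054), Samhd1 (-0.38 to 0.026), Mx2 (-0.034 to 0.20) and Ifit3 (-0.52 to 0.023), in Tyk2K923E for Isg20 (-0.48 to 0.20), Rsad2 (-0.28 to 0.0061) and Tyk2 (-0.23 to 0.0026), and between the mutants for Isg20 (-0.54 to 0.13), Zbp1 (-0.085 to 0.078) and Usp18 (-0.21 to 0.16). Of the 45 genes, 20 in Tyk2-/- and 10 in Tyk2K923E changed sign in at least 1 of these 24 settings, all with differences of 0.29 or less and 0.18 or less in size, so 3 arrays per genotype leave small differences unsettled.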

Other observations

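RMA values repeated exactly between arrays. For 16 of the 45 interferon-stimulated genes (35.6%) at least 2 arrays held the same value to the last digit, against 52.4% of all genes, and for 5 of them at least 3 arrays did. Oas3 in experiment 1 is such a case, where WT and Tyk2-/- shared 6.57.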
